A study of Mus musculus with 8 samples.

Results

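The circadian clock genes are the subject of this description: the 10 genes Clock, Arntl, Per1, Per2, Per3, Cry1, Cry2, Nr1d1, Nr1d2 and Dbp, taken with every probe that the array's gene table assigns to one of these symbols. They had 17 of the 25697 probes, and the array covers 16590 named genes in all. Gene expression was measured in NIH-3T3 cells, a mouse embryonic fibroblast line, on 8 Illumina MouseRef-8 bead arrays. In 3 samples the fibroblasts had received media conditioned by HL-1 cells, a mouse cardiomyocyte line (cardiomyocyte media). In 2 samples they had received the supernatant of such media after 2 h of ultracentrifugation (supernatant). In 3 samples they had received fresh Claycomb media that no cardiomyocytes had used (unused media). The paper describes cultures grown to confluence and then kept in serum-free media for 24 h, but does not restate this for the media transfer. All cells were harvested after 1 interval, 24 h from the transfer. Neither the paper nor the sample titles say whether the arrays share a day or hour of harvest. Hybridisation was spread over 2 chips. Replicates 2 and 3 of cardiomyocyte media and supernatant replicate 2 were on chip 2. The other 5 arrays, among them every one of unused media, were on chip 1. No centrifuged unused media was tested. Nothing says that the replicates came from separate experiments, so each p-value reflects the spread among these samples alone, which may be technical.

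The clock runs in single cells, fibroblasts included, as a loop of transcription and translation with a period of about a day. CLOCK and its partner BMAL1, the product of Arntl, bind E-boxes and switch on the Per and Cry genes, whose products return to the nucleus and inhibit the pair. The nuclear receptors REV-ERB alpha and beta, products of Nr1d1 and Nr1d2, repress Arntl. Dbp encodes a transcription factor of the output that binds D-boxes. A serum pulse, forskolin or a change of medium can reset the phase of cultured fibroblasts. Because each group was harvested after a single interval, a difference in mean level cannot be told apart from a difference in phase. Nor, in bulk RNA, can fewer expressing cells be told apart from less RNA per cell.

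The promoters of 4 members are shown because each carries a letter match to an element through which the loop's factors are known to act. Each window runs from 250 bases before to 50 bases after an annotated start site in RefSeq (build GRCm38.p6), 5′ to 3′ on the gene's strand, with matches in capitals. Searched on both strands were the E-box CACGTG, the E-prime box CACGTT, the D-boxes TTATGTAA and TTACGTAA and the RORE cores TAGGTCA and TGGGTCA. The cAMP response element TGACGTCA and its core TGACG, which every full element also contains, were searched too. The first Per1 window (chr11:69098699-69098998, plus strand) holds an E-box 166 bases before the start and a TGACG core 246 bases before it. The Per3 window (chr4:151044616-151044915, minus strand) holds a pair of D-boxes, 205 and 158 bases before the start. The Nr1d1 window (chr11:98775328-98775627, minus strand) holds an E-prime box, read on the other strand as AACGTG, 28 bases before the start. The second of the annotated Arntl starts (chr7:113207261-113207560, plus strand) has a RORE core beginning 31 bases into the transcript.
Per1: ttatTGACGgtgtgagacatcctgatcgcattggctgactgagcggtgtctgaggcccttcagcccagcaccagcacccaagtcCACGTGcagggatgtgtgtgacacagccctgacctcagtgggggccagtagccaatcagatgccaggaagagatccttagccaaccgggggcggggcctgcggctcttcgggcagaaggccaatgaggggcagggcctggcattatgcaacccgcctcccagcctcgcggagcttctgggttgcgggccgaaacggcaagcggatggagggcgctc
Per3: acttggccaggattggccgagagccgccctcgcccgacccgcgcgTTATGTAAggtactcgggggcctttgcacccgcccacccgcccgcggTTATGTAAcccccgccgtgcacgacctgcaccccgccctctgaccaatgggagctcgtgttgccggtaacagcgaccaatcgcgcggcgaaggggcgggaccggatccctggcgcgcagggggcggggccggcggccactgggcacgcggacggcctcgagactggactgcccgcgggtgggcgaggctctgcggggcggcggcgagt
Nr1d1: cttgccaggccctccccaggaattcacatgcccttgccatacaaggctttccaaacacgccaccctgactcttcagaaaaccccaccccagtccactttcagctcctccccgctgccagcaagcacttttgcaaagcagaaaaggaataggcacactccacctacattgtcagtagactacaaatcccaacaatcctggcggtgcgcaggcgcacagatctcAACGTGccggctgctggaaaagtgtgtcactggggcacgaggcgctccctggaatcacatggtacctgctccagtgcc
Arntl: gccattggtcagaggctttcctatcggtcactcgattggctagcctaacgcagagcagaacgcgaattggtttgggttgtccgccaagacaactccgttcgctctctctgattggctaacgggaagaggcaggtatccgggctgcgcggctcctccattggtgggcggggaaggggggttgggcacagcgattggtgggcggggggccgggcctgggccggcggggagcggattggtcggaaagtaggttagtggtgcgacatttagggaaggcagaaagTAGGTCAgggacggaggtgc
Of the 32851 windows of all genes, 7.15% hold the E-box, 4.68% the E-prime box, 0.938% the D-box TTATGTAA, 0.119% TTACGTAA, 2.61% the RORE core TAGGTCA and 3.98% TGGGTCA. The full cAMP response element is in 1.79% and its core in 20.8%. At least 2 copies of TTATGTAA, as in the Per3 window, occur in 7 windows (0.0213%). Windows were found for 9 of the 10 members, 13 windows in all, and 7 of them hold a match. The share of all windows that hold any of the elements was not counted, so the 7 cannot be read as an excess. The second Per1 window, not shown, holds a TGACG core 132 bases before its start, and the first Arntl window holds none of the elements. The Cry1 window holds an E-box, an E-prime box and a TGACG core. The Cry2 window holds an E-prime box and a TGACG core, and the windows of Clock, Nr1d2 and Dbp none of the elements searched. A match is a description of letters, not of a bound site.

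None of the 9 clock genes tested passed between any of the media groups (linear model of limma over all 8 arrays and 8885 genes, adjusted p under 0.05 by Benjamini-Hochberg). Between cardiomyocyte media and unused media 0 of 9 members passed, against 8.36% of all genes, 4.01% higher and 4.36% lower. Between supernatant and unused media 0 of 9 passed, against 2.17% of all genes, 0.732% higher and 1.44% lower. Between supernatant and cardiomyocyte media 0 of 9 passed, against 4.9% of all genes, 1.76% higher and 3.14% lower. At these shares fewer than 1 of 9 genes would pass in each comparison, so the counts of members are near those of all genes. Of the 17 probes, 12 were detected on all 8 arrays, 1 on 7 arrays and 4 on none, where detected means a detection p-value under 0.05 against the negative controls. Cry1, which encodes one of the cryptochrome repressors, has 1 probe, and it was not detected on any array (detection p 0.807 to 0.979), so 9 members entered the test, each by its brightest probe. An unadjusted p under 0.05 was reached by 2 of the 9 members between cardiomyocyte media and unused media, against 25.1% of all genes. It was reached by 1 member between supernatant and unused media, against 11.9%, and by 1 between supernatant and cardiomyocyte media, against 15.2%. With chip as a block 0 members passed either. In that fit 5.58% of all genes passed between cardiomyocyte media and unused media, where 3 members had an unadjusted p under 0.05, against 19.7% of all genes. Between supernatant and unused media 2.33% passed, and 3 members had an unadjusted p under 0.05, against 11.6%. Between supernatant and cardiomyocyte media 6.91% passed, and 1 member had an unadjusted p under 0.05, against 18.7%. The groups did not overlap for 1 member in each comparison, against 28.6%, 31.3% and 32.4% of all genes. The median log2 fold change over the 9 members was 0.00, 0.19 and 0.11 in these comparisons, beside -0.01, 0.00 and 0.02 over all genes. Given the spread of each member, a log2 fold change between 0.63 and 1.29 was needed to pass between cardiomyocyte media and unused media. For supernatant it was between 0.86 and 1.76 against unused media and between 0.77 and 1.56 against cardiomyocyte media. The comparisons share arrays, those of unused media in 2 of them, and are not independent of each other.

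**Figure D1:**
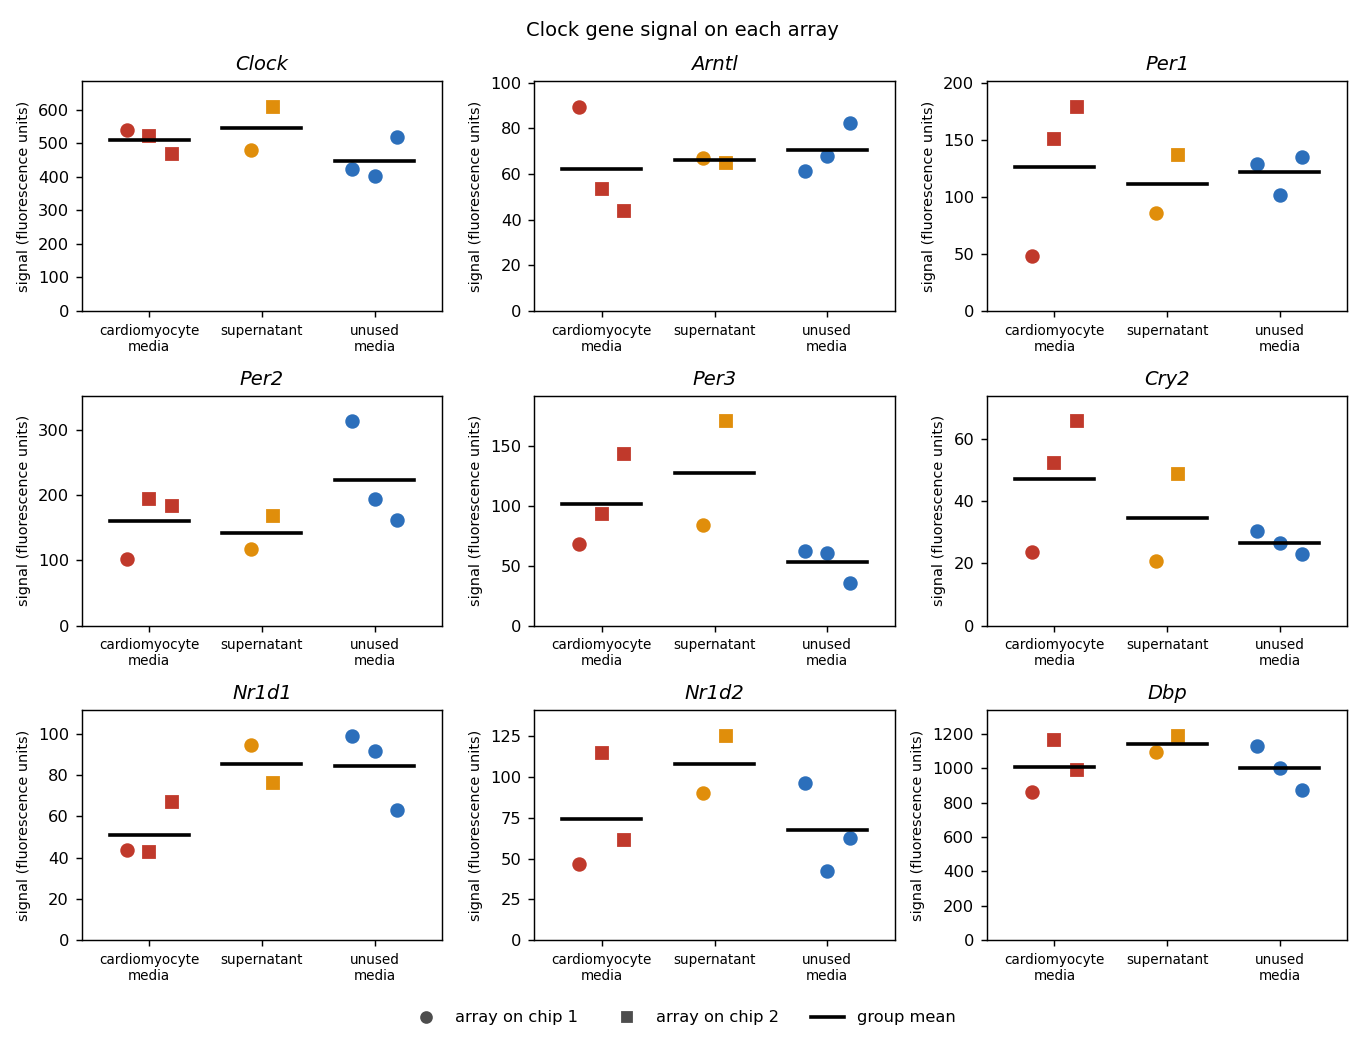
Signal of the 9 clock genes tested (vertical axis, normalized fluorescence units, linear from 0) on each array in cardiomyocyte media, supernatant and unused media, where circles are arrays on chip 1, squares arrays on chip 2 and bars group means. For Per1 and Cry2 the circles of cardiomyocyte media lie below its squares, and for Per3 every array of unused media lies below all arrays of the other groups.

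Signals are given in fluorescence units on the linear scale, after background correction and quantile normalization, and fold changes on the log2 scale after an offset of 16 was added, which understates changes of dim probes. Levels of different probes are not comparable, so each gene is compared with itself only. Raw median intensities ran between 55.8 and 57.5 on the chip 2 arrays and between 102 and 109 on the chip 1 arrays. Differences are therefore also given with chip as a block. In that fit the replicates 1 of cardiomyocyte media and supernatant alone tie these groups to unused media on the same chip. As to the cells themselves, 14 of 15 fibroblast markers with a probe were detected on all arrays. Their summed signal was 78217 to 87183 in cardiomyocyte media, 68087 to 77489 in supernatant and 59453 to 66815 in unused media. Of 24 cardiomyocyte markers, 3 were detected on all arrays, 11 on none and the rest on some arrays. The summed signal of this list was 1236 to 1410 in cardiomyocyte media, 1280 to 1487 in supernatant and 1137 to 1460 in unused media. For 8 macrophage and 9 endothelial markers, the numbers detected on all arrays were 1 and 0.

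By their brightest probes, the activators of the loop overlapped between all the media groups. Clock (chr5:76209868-76305603), which encodes the larger partner of the activator, had signals of 539, 523 and 469 in cardiomyocyte media, 479 and 610 in supernatant, and 423, 402 and 519 in unused media. The 3 groups overlapped, and the highest array was replicate 2 of the supernatant. The log2 fold change was 0.19 ± 0.18 (SE, 95% interval -0.20 to 0.57, adjusted p = 0.539 in limma) for cardiomyocyte media against unused media. For supernatant against unused media it was 0.27 ± 0.20 (adjusted p = 0.631). The values of Clock with chip as a block were 0.14 and 0.23. Arntl (chr7:113178471-113314126), which encodes BMAL1, had signals of 89.6, 53.5 and 43.8 in cardiomyocyte media, 67.2 and 64.7 in supernatant, and 61.5, 67.9 and 82.4 in unused media. Cardiomyocyte media thus gave both the highest array, replicate 1 on chip 1, and the lowest ones, replicates 2 and 3 on chip 2. The log2 fold change of Arntl was -0.18 ± 0.22 (95% interval -0.66 to 0.30, adjusted p = 0.642) for cardiomyocyte media against unused media, and 0.10 with chip as a block. For supernatant against unused media it was -0.07 ± 0.24 (adjusted p = 0.936), and 0.14 with chip as a block. Supernatant against cardiomyocyte media gave 0.08 ± 0.20 for Clock and 0.11 ± 0.24 for Arntl, with adjusted p of 0.931 and 0.926.

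The products of the period genes form the repressor with the cryptochromes. By their brightest probes, Per1 and Per2 were low on the chip 1 arrays of the transferred media. Per1 (chr11:69095108-69109965), the member known as an early responder to resetting stimuli, gave 47.9, 151 and 179 in cardiomyocyte media, 85.8 and 137 in supernatant, and 129, 102 and 135 in unused media. Replicate 1 of cardiomyocyte media had the lowest Per1 signal of all arrays and replicate 3 the highest, and in the supernatant too the chip 1 array was the lower one. Against unused media, cardiomyocyte media gave a log2 fold change of -0.10 ± 0.36 (95% interval -0.89 to 0.68, adjusted p = 0.881). With chip as a block it became -0.84 ± 0.25 (adjusted p = 0.0809). Within chip 1, with 1 array of cardiomyocyte media, it was -1.10 (adjusted p = 0.0962). Leaving out replicate 1 of cardiomyocyte media, which removes this group from chip 1, turned the sign of the fold change, to 0.40. The supernatant differed from unused media by -0.13 ± 0.40 (adjusted p = 0.928), and by -0.69 with chip as a block (adjusted p = 0.28).

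Per2 (chr1:91415977-91459351) had signals of 102, 195 and 183 in cardiomyocyte media, 117 and 167 in supernatant, and 314, 194 and 162 in unused media. Its highest signal was in replicate 1 of unused media and its lowest ones in the replicates 1 of cardiomyocyte media and supernatant. Cardiomyocyte media overlapped with both other groups, and so did supernatant. Against unused media the log2 fold change was -0.44 ± 0.28 (95% interval -1.06 to 0.18, adjusted p = 0.356) in cardiomyocyte media. In supernatant it was -0.56 ± 0.31 (95% interval -1.25 to 0.13, adjusted p = 0.521). With a chip term these values were -0.87 (adjusted p = 0.0953) and -0.89 (adjusted p = 0.165). Both stayed negative under every alternative tried. Supernatant and cardiomyocyte media differed by -0.12 ± 0.31 for Per2 (adjusted p = 0.936) and by -0.03 ± 0.40 for Per1 (adjusted p = 0.99). That of Per1 was 0.15 with chip as a block.

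Per3 (chr4:150997018-151044707), the period gene not needed for the rhythm itself, was the 1 member whose brightest probe set both transferred media apart from unused media. Its signals were 67.9, 93.3 and 144 in cardiomyocyte media, 84.6 and 171 in supernatant, and 62.7, 60.8 and 35.4 in unused media. All 5 arrays of the transferred media were higher than all 3 of unused media, and within both groups the chip 2 arrays were the higher ones. In cardiomyocyte media the log2 fold change was 0.75 ± 0.29 (95% interval 0.10 to 1.39, unadjusted p = 0.0276, adjusted p = 0.147). In supernatant it was 1.02 ± 0.33 (95% interval 0.29 to 1.74, unadjusted p = 0.0101, adjusted p = 0.218), and neither passed in limma. With chip as a block the values were 0.24 in cardiomyocyte media (adjusted p = 0.682) and 0.64 in supernatant (adjusted p = 0.36). Within chip 1 they were 0.31 and 0.57. Supernatant against cardiomyocyte media gave 0.27 ± 0.33 (adjusted p = 0.816).

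Cry2 (chr2:92403646-92434085), the cryptochrome with a detected probe, had signals of 23.6, 52.1 and 65.8 in cardiomyocyte media, 20.6 and 48.7 in supernatant, and 30.5, 26.4 and 23.1 in unused media. Its 3 arrays on chip 2 were all above its 5 arrays on chip 1, whatever the media. The log2 fold change of 0.50 ± 0.28 (95% interval -0.12 to 1.13, adjusted p = 0.291) between cardiomyocyte media and unused media was -0.08 ± 0.19 (adjusted p = 0.874) with chip as a block. Against unused media the supernatant gave 0.19 ± 0.32 (adjusted p = 0.853), and -0.24 with a chip term. Against cardiomyocyte media it gave -0.31 ± 0.32 (adjusted p = 0.766). Without replicate 1 of cardiomyocyte media, Cry2 (log2 fold change 0.81, adjusted p = 0.0412) and Per3 (0.97, adjusted p = 0.043) passed the test against unused media. All of that group then lay on chip 2 and all of unused media on chip 1, so that media and chip could not be told apart.

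**Figure D2:**
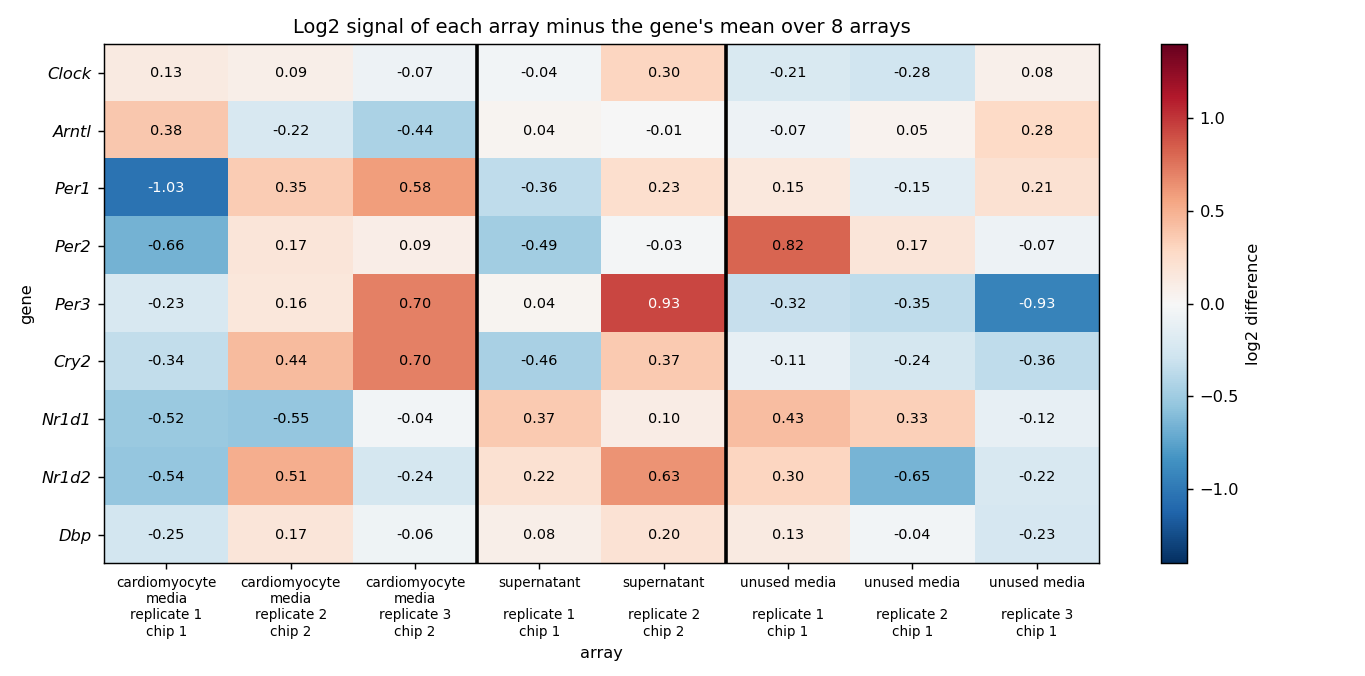
Log2 signal of each clock gene (rows) on each array (columns, by group, replicate and chip) minus the mean of that gene over the 8 arrays, in log2 units, red above and blue below the mean. Replicate 1 of cardiomyocyte media stands at -1.03 for Per1 and 0.38 for Arntl, and the chip 2 arrays stand at 0.37 to 0.70 for Cry2.

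The REV-ERB genes form the stabilising loop. Nr1d1 (chr11:98767932-98775377) had signals of 43.5, 42.6 and 67.0 in cardiomyocyte media, 94.5 and 75.9 in supernatant, and 99.0, 91.4 and 62.9 in unused media. The low arrays were replicates 1 and 2 of cardiomyocyte media, which lay on different chips. Replicate 3 of this group exceeded replicate 3 of unused media, so that these groups overlapped. Cardiomyocyte media differed from unused media by -0.58 ± 0.21 on the log2 scale (95% interval -1.05 to -0.12, unadjusted p = 0.0175, adjusted p = 0.116). With a chip term the difference was -0.60 (adjusted p = 0.223), and it was negative under every alternative. Supernatant differed from unused media by 0.02 ± 0.23 (95% interval -0.49 to 0.54, adjusted p = 0.98). By this brightest probe both supernatant arrays were above all 3 arrays of cardiomyocyte media. The log2 fold change between them was 0.61 ± 0.23 (95% interval 0.09 to 1.12, unadjusted p = 0.0248, adjusted p = 0.224). It was also 0.61 with a chip term (adjusted p = 0.17), 0.89 within chip 1 and 0.40 within chip 2.

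Nr1d2 (chr14:18204056-18239106) had signals of 46.8, 115 and 61.3 in cardiomyocyte media, 90.6 and 125 in supernatant, and 96.7, 42.5 and 62.7 in unused media. High and low arrays occurred in both 3-array groups. Against unused media the difference on the log2 scale was 0.10 ± 0.30 (adjusted p = 0.864) in cardiomyocyte media and 0.61 ± 0.33 (95% interval -0.13 to 1.35, adjusted p = 0.513) in supernatant. Supernatant against cardiomyocyte media gave 0.51 ± 0.33 (adjusted p = 0.563). With chip as a block the sign for cardiomyocyte media against unused media turned, to -0.28 (adjusted p = 0.7). That for supernatant against unused media was 0.33 (adjusted p = 0.765). Dbp (chr7:45705100-45710203), the output gene, had signals of 862, 1166 and 991 in cardiomyocyte media, 1094 and 1190 in supernatant, and 1130, 1002 and 876 in unused media. Its log2 fold change of 0.00 ± 0.18 between cardiomyocyte media and unused media had a 95% interval of -0.39 to 0.40 (0.763 to 1.32 fold, adjusted p = 0.995). Its value in supernatant was 0.19 ± 0.20 against unused media (95% interval -0.25 to 0.63, adjusted p = 0.748) and 0.19 ± 0.20 against cardiomyocyte media (adjusted p = 0.779). Dbp with chip as a block stood at -0.15 in cardiomyocyte media and 0.08 in supernatant, each against unused media.

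**Figure D3:**
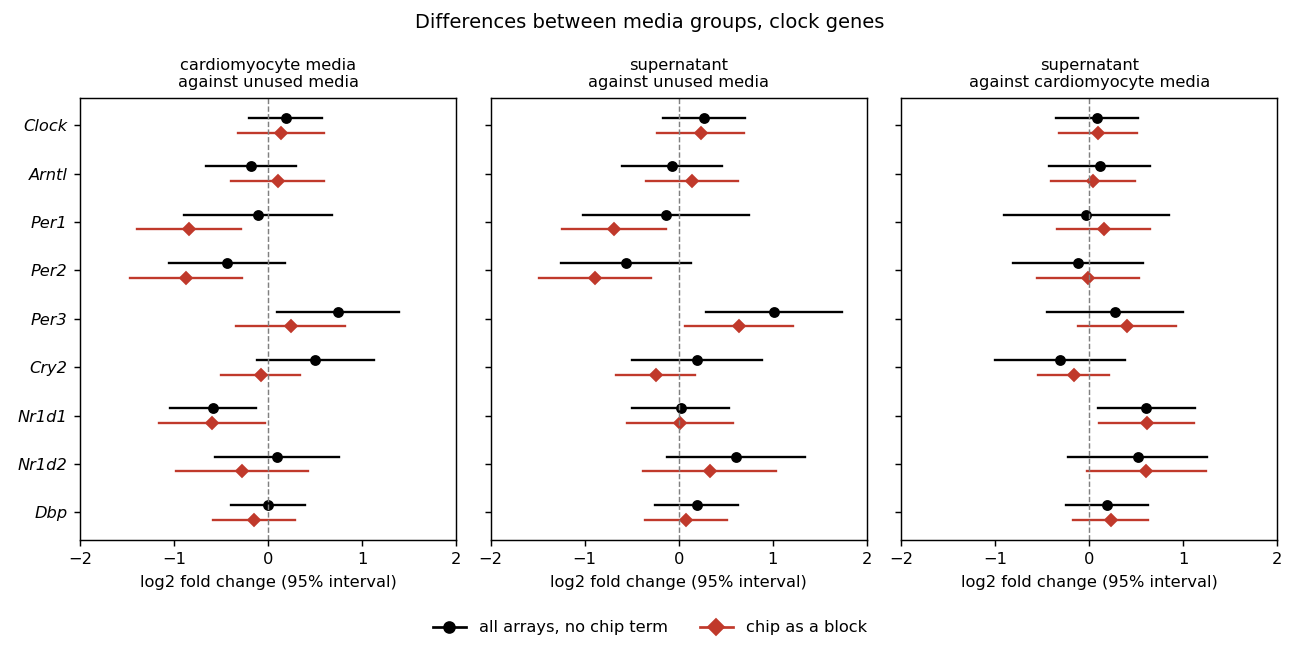
Log2 fold change (points) with its 95% interval (lines) of the 9 clock genes for cardiomyocyte media against unused media, supernatant against unused media and supernatant against cardiomyocyte media, without a chip term (black) and with chip as a block (red). With chip as a block Per1 and Per2 stand at -0.84 and -0.87 in the first comparison, Per3 moves closer to 0, and Nr1d1 stays at -0.60.

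Clock, Per1, Per2 and Nr1d1 each had a second detected probe, which gives another reading of the same gene from the same RNA. By brightest probes, cardiomyocyte media and unused media did not overlap for 28.6% of all genes. Supernatant and unused media did not overlap for 31.3%. These shares were not counted over all probes. The second probe of Per2 had signals of 79.0, 151 and 168 in cardiomyocyte media, 143 and 134 in supernatant, and 187, 194 and 198 in unused media. All 5 arrays of the transferred media were below those of unused media. In a limma fit on 12013 probes the log2 fold change was -0.55 ± 0.24 (unadjusted p = 0.0427, adjusted p = 0.196) in cardiomyocyte media and -0.44 ± 0.27 (adjusted p = 0.581) in supernatant. With a chip term these values were -0.86 (adjusted p = 0.0841) and -0.67 (adjusted p = 0.31). The second probe of Nr1d1 had signals of 24.2, 16.3 and 20.1 in cardiomyocyte media, 22.0 and 31.1 in supernatant, and 30.3, 31.6 and 41.4 in unused media. Cardiomyocyte media lay below unused media on every array (log2 fold change -0.48 ± 0.18, unadjusted p = 0.0232, adjusted p = 0.147). On replicate 2 of cardiomyocyte media this probe was not detected (detection p 0.0602). Its supernatant and cardiomyocyte media arrays overlapped, with a log2 fold change of 0.23 ± 0.20 between them (adjusted p = 0.746 in limma). Within chip 1 this value was -0.08, and within chip 2 it was 0.46.

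The second probes of Per1 and Clock followed their first probes less. That of Per1 had signals of 50.7, 30.0 and 59.6 in cardiomyocyte media, 27.4 and 48.2 in supernatant, and 56.9, 57.2 and 83.8 in unused media. Here replicate 2, not replicate 1, of cardiomyocyte media was the lowest of its group. In the same limma fit its log2 fold change against unused media was -0.40 ± 0.24 in cardiomyocyte media (unadjusted p = 0.128, adjusted p = 0.341). In supernatant it was -0.62 ± 0.27 (unadjusted p = 0.0436, adjusted p = 0.441). Both supernatant arrays of this Per1 probe were below unused media, a comparison in which 31.3% of all genes did not overlap by their brightest probes. The second probe of Clock had signals of 81.2, 44.5 and 41.4 in cardiomyocyte media, 71.9 and 61.8 in supernatant, and 77.7, 74.3 and 109 in unused media. The chip 2 arrays were the 3 lowest, and both supernatant arrays were below unused media (log2 fold change -0.30 ± 0.26, adjusted p = 0.703). It gave -0.55 ± 0.23 (unadjusted p = 0.0379, adjusted p = 0.186 in limma) for cardiomyocyte media against unused media, and -0.23 with chip as a block. The brighter Clock probe gave 0.19 without a chip term. Over the 8 arrays the log2 signals of the 2 probes correlated with r = 0.70 for Per2, 0.39 for Nr1d1, 0.18 for Per1 and -0.07 for Clock. The third probes of Clock and Per2, and the second of Nr1d2, were not detected on any array.

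**Figure D4:**
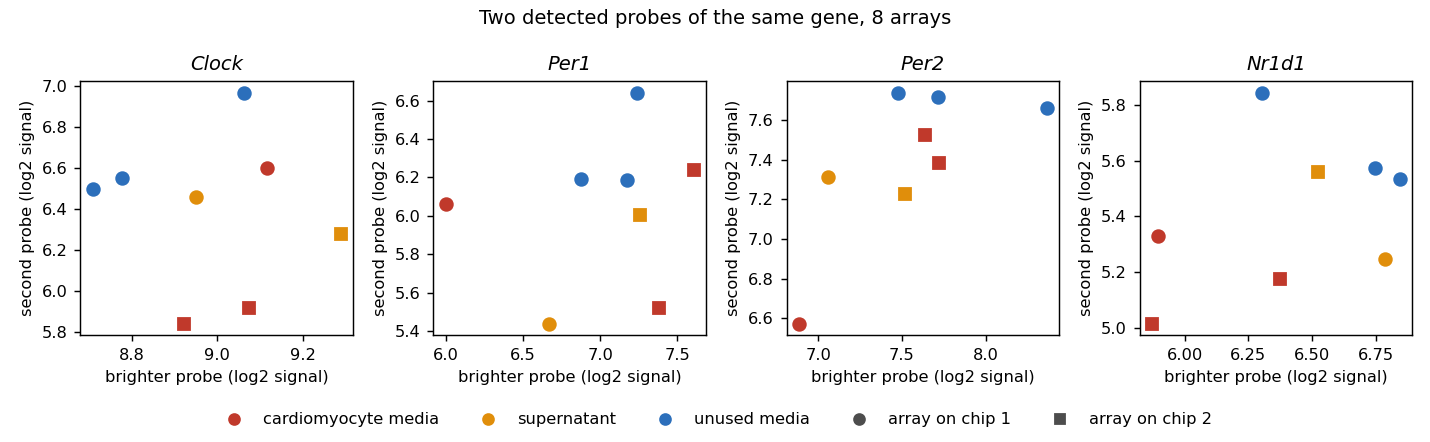
Log2 signal of the brighter probe (horizontal axis) against the second detected probe (vertical axis) of Clock, Per1, Per2 and Nr1d1 on the 8 arrays, by group (colour) and chip (circle or square). The Per2 probes rise together (r = 0.70) and the Clock probes do not (r = -0.07).

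Outputs of the CLOCK and BMAL1 pair can also be set against Arntl, since in a running clock they peak at opposite times. The mean log2 signal of Per1, Per2, Per3, Nr1d1, Nr1d2 and Dbp minus the log2 signal of Arntl was 0.10, 1.38 and 1.63 in cardiomyocyte media, 0.96 and 1.37 in supernatant, and 1.34, 0.85 and 0.51 in unused media. The range was widest in cardiomyocyte media, whose low value is its chip 1 array, and the groups overlapped. As a description over 8 arrays that share 2 chips, the pair of members with the highest correlation of log2 signals was Nr1d2 and Dbp (r = 0.85) and the pair with the lowest was Arntl and Cry2 (r = -0.83), followed by Arntl and Per1 (r = -0.76). Among all genes tested, those most like Per1 over the 8 arrays were Lins1, Bap1 and Mrps27 (r from 0.95 to 0.97). Those most like Per2 were Lemd2, Nr2c1 and Sun2 (0.96 to 0.97), and those most like Per3 were Lsm14a, Cd276 and Nlrx1 (0.98 to 0.99). Arntl was most like Epha7, Ghsr and Snx4 (all 0.95), Clock most like Tmx4, Ppp4r3a and Smarca1 (0.94 to 0.95) and Cry2 most like Tbcc, Mtg1 and Ttc13 (0.98 to 0.99). Nr1d1 was most like Whrn, Ecm1 and Slc44a2 (0.96 to 0.97), Nr1d2 most like Ctns, Hs6st3 and Slain2 (0.94 to 0.96) and Dbp most like Dusp16, Sbk1 and Tmem106b (0.95 to 0.96). Each of these lists is the top of 8885 genes over only 8 arrays, where high values of r are readily found, and none was tested. No neighbour was itself a clock gene, but 9 members among 8885 genes would seldom reach such short lists.

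Around the members, further genes of the clock system were counted by list, to be read beside the shares of all genes that passed. The lists were chosen with earlier results of these data known. The counts are therefore a description, and an excess over a share is no independent evidence about the clock. In either direction, 8.36% of all genes passed for cardiomyocyte media and 2.17% for supernatant, each against unused media. For supernatant against cardiomyocyte media 4.9% passed. The lists of further genes held 8, 16, 14, 23, 18 and 10 tested genes. Between cardiomyocyte media and unused media 13 of these genes passed, and 6 kept the call within chip 1, with 1 array of cardiomyocyte media: Plau, Cdkn1a, Cirbp, Fosl1, Hmox1 and Junb. In supernatant 5 passed against unused media and 5 against cardiomyocyte media, and 0 of either kept the call within chip 1. With a replicate block all 5 calls of supernatant against cardiomyocyte media ended (Cdkn1a, Csnk1d, Fos, Hmox1 and Junb, adjusted p from 0.0536 to 0.108). Those of Cdkn1a (adjusted p = 0.0612) and Insig2 (adjusted p = 0.119) in supernatant against unused media ended too. Of 8 tested paralogues and regulators of the stabilising loop, 1 rose and 1 fell in cardiomyocyte media against unused media, where 4.01% of all genes rose and 4.36% fell. The median log2 fold change of the 8 was -0.36, beside -0.01 over all genes. Rora, which encodes the activator that competes with the REV-ERB proteins at the RORE of Arntl, had signals of 212, 163 and 249 in cardiomyocyte media, 163 and 169 in supernatant, and 113, 98.5 and 104 in unused media. It rose in cardiomyocyte media by 0.87 ± 0.18 on the log2 scale (adjusted p = 0.0135, and 0.0383 with chip as a block). This call was lost without replicate 2 of unused media or replicate 3 of cardiomyocyte media (adjusted p up to 0.0581), and within chip 1 (adjusted p = 0.134). In supernatant its log2 fold change against unused media was 0.59 ± 0.20 (adjusted p = 0.265). Timeless, which in mammals works at replication forks and is a candidate partner of the clock, had signals of 140, 114 and 126 in cardiomyocyte media, 62.0 and 79.5 in supernatant, and 257, 199 and 238 in unused media. It fell against unused media by 0.79 on the log2 scale in cardiomyocyte media (adjusted p = 0.0179, 0.0502 with chip as a block) and by 1.51 in supernatant (adjusted p = 0.00434). The call in supernatant was lost without either supernatant array. The call in cardiomyocyte media was lost without replicate 1 or 3 of unused media or replicate 2 or 3 of cardiomyocyte media. In supernatant against cardiomyocyte media none of the 8 passed, with 1 at an unadjusted p under 0.05, against 15.2% of all genes. With chip as a block Timeless passed there, lower by -0.72 on the log2 scale (adjusted p = 0.0457 in limma), beside 6.91% of all genes in either direction.

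The next list held 16 kinases, phosphatases, ubiquitin ligase subunits and ubiquitin-removing enzymes (Usp2 and Usp7) that act on PER, CRY and REV-ERB proteins. Of these, 1 fell in cardiomyocyte media against unused media and 1 fell in supernatant against cardiomyocyte media. The shares of all genes that fell there were 4.36% and 3.14%. None passed in supernatant against unused media in limma, with 1 at an unadjusted p under 0.05, against 11.9% of all genes. Fbxw7, a ubiquitin ligase subunit that marks REV-ERB alpha among other proteins for degradation, had signals of 209, 123 and 114 in cardiomyocyte media, 401 and 180 in supernatant, and 351, 312 and 315 in unused media. Its log2 fold change in cardiomyocyte media was -1.10 (adjusted p = 0.0384), and -0.50 with chip as a block (adjusted p = 0.163). The call was also lost without any 1 array of unused media or without replicate 2 or 3 of cardiomyocyte media. In supernatant against cardiomyocyte media Fbxw7 did not pass (log2 fold change 0.84, adjusted p = 0.216 in limma). It passed there with chip as a block (0.69, adjusted p = 0.033), beside 6.91% of all genes in either direction. Csnk1d, which encodes casein kinase 1 delta, a kinase of the PER proteins, had signals of 321 and 293 in supernatant and 543, 511 and 544 in cardiomyocyte media. It was lower in supernatant, log2 fold change -0.77 (adjusted p = 0.0382), a call lost without any 1 of these 5 arrays or replicate 2 of unused media. The Csnk1d call was also lost with each probe tested, with probes averaged (-0.49) and with the authors' normalized values. None of 14 cofactors of clock transcription passed in any comparison in limma, with 1, 2 and 2 at an unadjusted p under 0.05, against 25.1%, 11.9% and 15.2% of all genes.

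Among 23 genes described elsewhere as clock outputs, 1 rose and 4 fell in cardiomyocyte media against unused media, where 4.01% of all genes rose and 4.36% fell. Plau, which encodes the protease urokinase, had signals of 1366, 1621 and 1730 in cardiomyocyte media, 390 and 503 in supernatant, and 10.7, 87.9 and 131 in unused media, where replicate 1 was not detected. It rose by 4.42 ± 0.48 on the log2 scale in cardiomyocyte media (adjusted p = 0.000204) and by 2.63 ± 0.54 in supernatant (adjusted p = 0.0309, and 0.0622 with chip as a block). Without replicate 1 of unused media these values were 3.68 and 1.90, so that this array carries part of their size. The call in supernatant was lost without either supernatant array, replicate 2 of unused media or replicate 2 of cardiomyocyte media. Cdkn1a, the cyclin-dependent kinase inhibitor p21, had signals of 306, 358 and 302 in cardiomyocyte media, 564 and 554 in supernatant, and 997, 1181 and 966 in unused media. Its groups were apart in all comparisons. Against unused media it fell by 1.65 on the log2 scale in cardiomyocyte media (adjusted p = 0.000103) and by 0.88 in supernatant (adjusted p = 0.0322). In supernatant it was higher than in cardiomyocyte media by 0.77 (adjusted p = 0.0354). The supernatant's calls were lost without either supernatant array. Those against unused media were also lost without any 1 array of unused media or replicate 2 of cardiomyocyte media, and those against cardiomyocyte media without any 1 array of that group or replicate 1 or 2 of unused media. With probes averaged, the value of Cdkn1a against cardiomyocyte media was 0.51 and did not pass.

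Hmox1, the heme-degrading enzyme of oxidative stress, had signals of 11.1, 19.5 and 27.8 in cardiomyocyte media, 67.1 and 51.2 in supernatant, and 74.3, 119 and 79.2 in unused media. Replicate 1 of cardiomyocyte media was below detection. Hmox1 fell by 1.60 on the log2 scale in cardiomyocyte media (adjusted p = 0.00129). In supernatant it was higher than in cardiomyocyte media by 1.10 (adjusted p = 0.0294, lost without either supernatant array or replicate 1 or 2 of cardiomyocyte media). Cirbp, a cold-inducible RNA-binding protein, fell by 0.92 in cardiomyocyte media (adjusted p = 0.0138, lost without replicate 1 or 3 of unused media). Alas1, the first enzyme of heme synthesis, named after its values were seen, fell by 0.66 (adjusted p = 0.0333, 0.128 with chip as a block). Alas1 kept its call without replicate 1 of cardiomyocyte media and lost it without any other single array. In supernatant against unused media 2 of the 23 rose and 1 fell, beside 0.732% and 1.44% of all genes. In supernatant against cardiomyocyte media 2 rose, beside 1.76%, and 3 rose with chip as a block. Among the rises against unused media, beside Plau, was Insig2, a brake on cholesterol synthesis, with signals of 1225 and 1055 in supernatant and 437, 654 and 613 in unused media. It rose (adjusted p = 0.0415) and lost its call without any 1 array other than replicate 1 of cardiomyocyte media.

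Of 18 immediate early and cAMP response genes that accompany resetting of the clock, 3 rose and 1 fell in cardiomyocyte media against unused media, beside 4.01% and 4.36% of all genes. In supernatant 1 fell against unused media, beside 1.44%, and 2 fell against cardiomyocyte media, beside 3.14%. With chip as a block 3 fell against cardiomyocyte media. Junb, a subunit of the transcription factor AP-1, had signals of 430, 360 and 516 in cardiomyocyte media, 239 and 187 in supernatant, and 152, 153 and 124 in unused media. It rose by 1.50 ± 0.19 on the log2 scale in cardiomyocyte media (adjusted p = 0.000565). In supernatant it was lower than in cardiomyocyte media, log2 fold change -0.97 ± 0.21 (adjusted p = 0.0217), a call lost without either supernatant array or replicate 3 of cardiomyocyte media. The early growth response factors Egr2 and Egr1 rose in cardiomyocyte media by 1.13 (adjusted p = 0.00496) and 0.81 (adjusted p = 0.0141). Both calls were lost within chip 1 (adjusted p = 0.214 and 0.266), and that of Egr1 without replicate 2 of unused media or of cardiomyocyte media. Fosl1, another AP-1 subunit, had signals of 44.6, 23.4 and 24.4 in cardiomyocyte media, 66.4 and 32.6 in supernatant, and 147, 136 and 184 in unused media. It fell by 1.89 on the log2 scale in cardiomyocyte media (adjusted p = 0.000642) and by 1.43 in supernatant (adjusted p = 0.0217, lost without either supernatant array or any 1 of unused media). Fos had signals of 85.2 and 79.2 in supernatant and 159, 229 and 143 in cardiomyocyte media. It was lower in supernatant, log2 fold change -0.95 ± 0.24 (adjusted p = 0.0453). This call was lost without any 1 array other than replicate 1 of cardiomyocyte media or replicate 3 of unused media, and with each probe tested. For cardiomyocyte media against unused media the value of Fos was 0.68 ± 0.21 (adjusted p = 0.076). Of 10 glucocorticoid response genes 1 passed, higher in cardiomyocyte media than in unused media, beside 4.01% of all genes. Errfi1, an inhibitor of the EGF receptor, rose by 0.65 (adjusted p = 0.0427, 0.0592 with chip as a block, lost without any 1 array and with each probe tested). None of the 10 passed in supernatant against unused media or against cardiomyocyte media, with 1 and 3 at an unadjusted p under 0.05, against 11.9% and 15.2% of all genes. With chip as a block 1 rose in supernatant against cardiomyocyte media, where 6.91% of all genes passed in either direction.

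**Figure D5:**
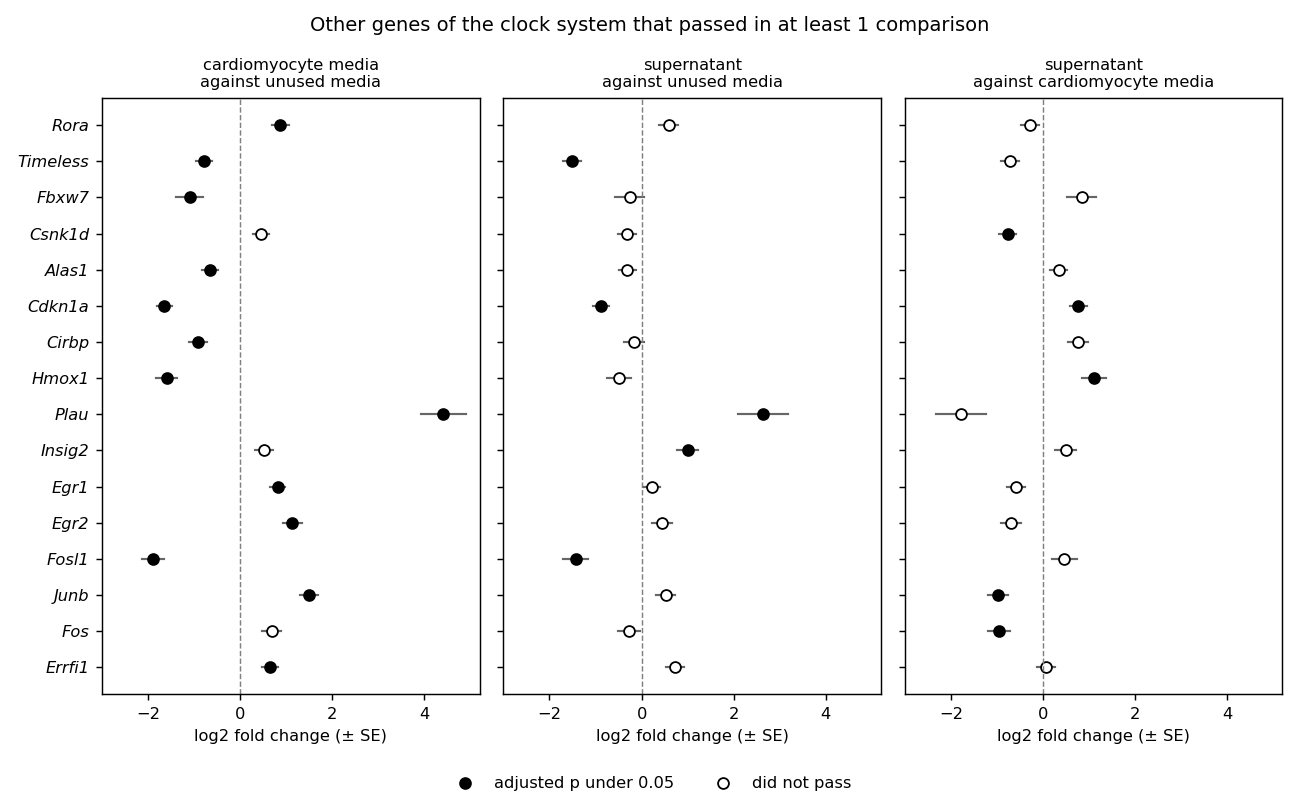
Log2 fold change ± SE (horizontal axis) of the 16 further genes of the clock system that passed in at least 1 comparison, for the 3 comparisons, where filled points passed at an adjusted p under 0.05 and open points did not. Plau stands farthest to the right in the first 2 comparisons (4.42 and 2.63) and Fosl1 farthest to the left in the first (-1.89).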

How the data were processed

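Total RNA of NIH-3T3 fibroblasts was hybridised to 8 arrays, grouped by their labels. The deposited values came from BeadStudio, version 3.3 per the submitters' processing notes. The authors gave each probe's mean intensity on the linear scale, the number of beads, the bead standard error and a detection p-value, and a second intensity table after background subtraction and cubic spline normalization, used here only as an alternative. The deposited bead number counts the beads of a probe, 24 to 51 for the clock probes, and the standard error over beads divided by the intensity, the median over arrays, was 3.96 to 7.19% for the probes tested, which covers the measurement within an array only.

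In R 4.3.3 with limma 3.58.1, normexp background correction (negative controls inferred from the detection p-value, offset 16) was followed by quantile normalization and log2 transformation. A single gene name was known for 23978 of the 25697 probes and none for 1719; 8 names were updated to GRCm38.p6. Genes with a probe detected (p under 0.05) on at least 2 arrays were kept, 8885 in all, each by its brightest probe. The fit had 1 coefficient for each group over 8 arrays with empirical Bayes moderation, and passed means an adjusted p under 0.05. The script was tested on simulated data.

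Alternatives were background correction, offset, normalization, filter, probe choice, variance model, chip, replicate block and leaving out each array; chip and left-out fits kept the normalized values, genes and probes and were refitted only. A fit on each probe with chip as a block was added after seeing the data. All members and probes are named. Of the other lists, genes that passed are named, at most the 4 with the smallest p in each comparison, and for each member the 3 genes with the highest correlation. The members and lists were chosen with earlier results of these data known. The paper's text exchanges the names of its 2 series; the sample labels were followed. Coordinates and promoters are of GRCm38.p6.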

Additional observations from a re-analysis of the deposited data

How the results depend on the processing

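For the clock genes, 0 members passed in each comparison with limma, and this held under all alternatives except one: without replicate 1 of cardiomyocyte media, 2 members (Per3 and Cry2) passed against unused media, so that leaving out single arrays gave 0 to 2 members there and 0 in the other comparisons. In that fit unused media lay on chip 1 and cardiomyocyte media on chip 2 only, and the number of all genes that passed was 1448, against 743 with every array. Within chip 1 alone it was 173. In supernatant against unused media 193 genes passed with all arrays, 0 within chip 1, and in supernatant against cardiomyocyte media 435 passed, 37 within chip 1. Of 657 values of members under the alternatives, 599 kept their sign and side of the threshold, 56 changed sign without passing and 2 passed.

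Giving all arrays the same median, without quantile normalization, moved the median log2 fold change of all genes to 0.21 in cardiomyocyte media and 0.26 in supernatant, each against unused media, and the share of rises among genes that passed to 76.9% and 84.1%, against 47.9% and 33.7%. All members' fold changes moved up with it, and 0 members passed. With a replicate block, 0 members passed in any comparison, and 731, 97 and 342 of all genes passed in cardiomyocyte media against unused media, supernatant against unused media and supernatant against cardiomyocyte media. Of the further clock genes that passed, 13 of 13, 3 of 5 and 0 of 5 kept their calls in these comparisons. The labels do not say that the numbers mark shared experiments. Deviations of same-numbered arrays of cardiomyocyte media and unused media correlated with -0.18, -0.09 and -0.16. Replicates 2 and 3 of these groups lay on different chips, so these values cannot decide whether the numbers pair. Same-numbered arrays of supernatant and cardiomyocyte media had deviations that correlated with 0.71 and 0.49. They share a chip, so that number and chip cannot be told apart there. Of 553 values of the further genes that passed, 385 kept their call and 168 lost it, and none reversed. The number of arrays limits the precision.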
